A study of Mus musculus with 2 samples.

Results

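The genes described here encode the proteins of the cytosolic ribosome, taken as every symbol of the deposited gene list that begins with Rpl or Rps and a digit, or with Rplp or Rpsa. Pseudogene names, the Rps6k kinases, Rps27l and Rpl names ending in l were left out, and a gene needed at least 100 unique molecular identifiers (UMIs, each 1 captured RNA molecule) over both libraries. The rule found 81 of 28692 listed genes, and no symbol that matched fell under the floor; the member nearest to it was Rpl7l1, with 2797 UMIs. By subunit, 31 members belong to the small and 46 to the large subunit. The other 4 are Rpl22l1 and Rps27rt, which are paralogs of Rpl22 and Rps27, and Rpl7l1 and Rps19bp1, which carry similar names but are not counted here as subunit proteins. Fau, which encodes a ribosomal protein fused to a ubiquitin-like protein, and Gnb2l1 (an older symbol of Rack1) lie outside the rule and are given for comparison.

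A ribosome holds nearly all of its proteins in equal number, so cells make these proteins in matched amounts. The mRNAs are among the most abundant of a cell. Most begin with a cytosine followed by a run of pyrimidines, the terminal oligopyrimidine motif, through which mTOR signalling sets how well they are translated; counts of mRNA molecules do not show translation. The stalk proteins (encoded by Rplp0, Rplp1 and Rplp2) bind the elongation factors, and some subunit proteins have paralogs whose use differs between tissues.

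The study profiled single Epcam-positive cells sorted by flow cytometry from the lungs of adult C57BL/6 mice, with 1 library labelled Control and 1 labelled NAPH. The series title places the NAPH library after NAPH-induced injury of the airway epithelium, and no label spells out the abbreviation, gives a dose, a time after injury, a treatment of the Control, or the number, age in weeks or sex of the animals. No genetic allele is named for either group. Libraries were made with the Chromium 3′ kit, so a UMI marks the 3′ end of a transcript. Because each group is 1 library, no test between groups was possible: every interval below is an exact 95% interval that covers counting error only, and condition and library cannot be told apart.

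The Control library held 3298 barcodes and 41699755 UMIs, the NAPH library 3685 barcodes and 38497783 UMIs, with medians of 8303.5 and 9417 UMIs per barcode. After filters and doublet removal, 3211 and 3572 cells were kept, and 14 barcode sequences occurred in both libraries. Cells were split by fixed thresholds per 10000 UMIs. Alveolar type 2 (AT2) cells, the surfactant-making cells of the alveolus, had Sftpc at 500 or more (1793 Control and 2501 NAPH cells). Secretory (club-type) airway cells had Scgb1a1 at 1000 or more (749 and 186), ciliated cells had Foxj1, Ccdc153 and Tmem212 together at 10 or more (187 and 198), and 472 and 672 cells remained. A further 10 and 15 cells met more than 1 rule and were set aside. Sftpc and Scgb1a1 define classes, so their levels there are no check of the names. The remaining class is named by its rule only: 448 of its 472 Control cells and 491 of its 672 NAPH cells carried immune markers, its Cd74 level was 18550 and 16340 CPM (counts scaled to the summed UMIs of the class), and its Epcam level (209 and 232 CPM) was close to that of AT2 cells (192 and 171 CPM), although the label says epithelium. T, NK or B cell markers summed to 1.02 CPM in the remaining cells of the Control library and 4139 CPM in those of the NAPH library. Thus the remaining cells of the libraries differ in make-up.

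Pyrimidine runs were more frequent at the start sites of these genes than at all start sites, but many members lacked them. RefSeq promoter windows (GRCm38.p6) were matched by symbol for 61 of the 81 members, with 71 start sites. Each sequence below runs 5′ to 3′ from 20 bases before the annotated start through the first 20 bases of the transcript, so the start is the 21st letter, and the capitals mark the longest uninterrupted run of C and T that touches the 20 bases on either side. The first 3 are members whose share of ribosomal protein UMIs was higher in the NAPH library, the next 2 were lower in AT2 and remaining cells, and the last 2 are the most abundant member and the paralog Rpl22l1.
Rpl15, chr14:18270967-18271006, minus strand: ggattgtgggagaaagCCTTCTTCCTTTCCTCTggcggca
Rpl35, chr2:39005112-39005151, minus strand: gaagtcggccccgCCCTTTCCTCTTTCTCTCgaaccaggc
Rplp0, chr5:115559447-115559486, plus strand: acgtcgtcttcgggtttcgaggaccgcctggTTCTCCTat
Rpl9, chr5:65391412-65391451, minus strand: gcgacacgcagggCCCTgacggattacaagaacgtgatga
Rps4x, chrX:102189372-102189411, minus strand: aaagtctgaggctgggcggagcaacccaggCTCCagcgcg
Rpl41, chr10:128549149-128549188, minus strand: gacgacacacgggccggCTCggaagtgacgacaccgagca
Rpl22l1, chr3:28805488-28805527, plus strand: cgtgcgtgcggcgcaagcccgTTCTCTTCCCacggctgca
The run spans 17 bases at Rpl15 and 18 at Rpl35 and covers the annotated start of both, it spans 10 bases just downstream of the start at Rpl22l1, and it is 3 bases long at Rpl41. Over all matched start sites of the members, a run of at least 8 pyrimidines on the sense strand lay within 20 bases of the start at 46.5%, against 21.2% of all 32851 RefSeq start sites. The stricter form, a C exactly at the start followed by 4 further pyrimidines, was found at 19.7% of the members' start sites and 2.51% of all start sites. A match is a description of these letters and the annotated start can differ from the one used in these cells.

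Ribosomal protein mRNAs took a class-specific share of the library. Summed over cells, the 81 members made up 14.27% of AT2 UMIs in the Control library and 13.43% in the NAPH library, 9.17% and 8.39% in ciliated cells, and 28.11% and 28.03% in the remaining cells. In secretory cells the share was 8.53% in the Control library and 11.61% in the NAPH library. The NAPH over Control ratios were 0.941 (0.939 to 0.943) in AT2 cells, 1.361 (1.356 to 1.365) in secretory cells, 0.915 (0.908 to 0.923) in ciliated cells and 0.997 (0.995 to 0.999) in the remaining cells. With all UMIs as the total, secretory cells had the highest ratio of the 4 classes, an order that did not hold on other totals. Both subunits gave much the same ratio within a class: 0.931 for the small and 0.946 for the large subunit in AT2 cells, 1.353 and 1.359 in secretory cells, 0.907 and 0.920 in ciliated cells, and 0.985 and 1.003 in the remaining cells.

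**Figure D1:**
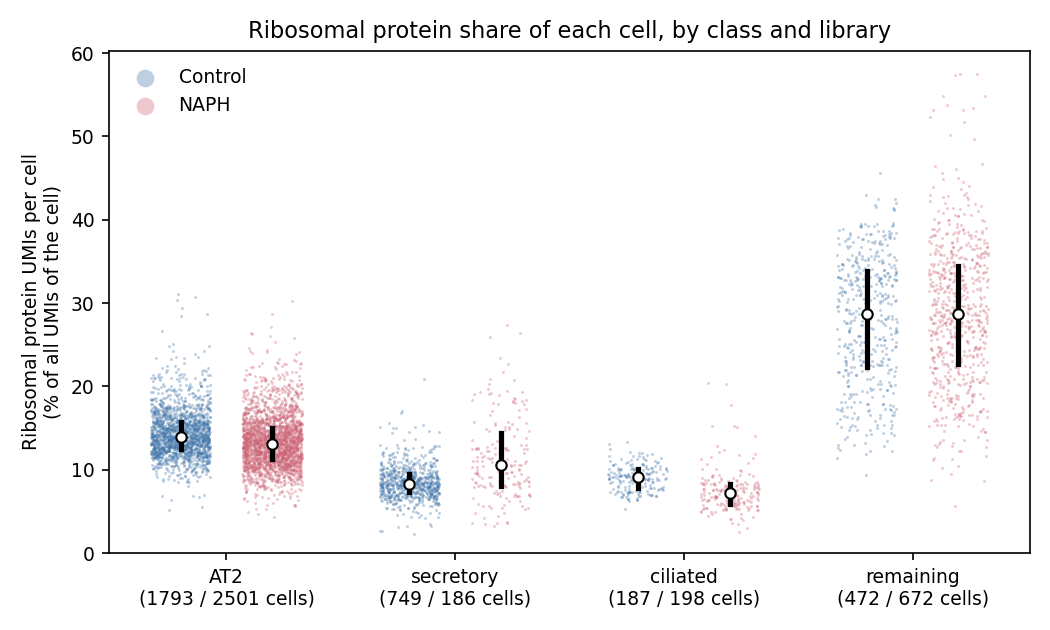
Share of ribosomal protein UMIs in single cells (y axis, % of all UMIs of the cell) by class and library (x axis); points are cells, white circles medians and black bars the quartiles. Remaining cells sit highest in both libraries (medians 28.67% and 28.68%), and the NAPH secretory cells spread from a lower quartile of 8.11% to an upper quartile of 14.47%.

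Cells of a class varied widely in this share. The median Control AT2 cell had 13.97% (quartiles 12.52% to 15.72%) and the median NAPH AT2 cell 13.14% (11.27% to 15.07%), so the middle cells of the libraries overlap. Secretory cells had medians of 8.31% (7.29% to 9.45%) and 10.59% (8.11% to 14.47%), with the spread wider in the NAPH library. Ciliated cells had medians of 9.11% (7.78% to 10.09%) and 7.16% (5.91% to 8.31%).

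The share in secretory cells depends on what else the cell makes. Scgb1a1, the secreted club cell protein, alone took 59.76% of secretory UMIs in the Control library and 35.84% in the NAPH library, and 10 class products (secretoglobins, surfactant proteins, lysozymes and Bpifa1) took 63.44% and 45.61%. With those products and mitochondrial transcripts left out of the total, ribosomal proteins made up 24.83% and 22.39% of the remaining secretory UMIs, so the ratio turned to 0.902 (0.899 to 0.905). In AT2 cells, whose products took 33.98% and 29.31%, the share without products was 22.88% and 19.94% and the ratio moved to 0.871. Ciliated (9.89% and 9.04%) and remaining cells (29.48% and 29.60%) hardly moved. The number of ribosomal protein UMIs in the median secretory cell was 2498 in the Control and 2439 in the NAPH library, beside total medians of 29298 and 22606 UMIs. In the median AT2 cell it was 1080 and 1265, beside totals of 7677 and 9540.

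**Figure D2:**
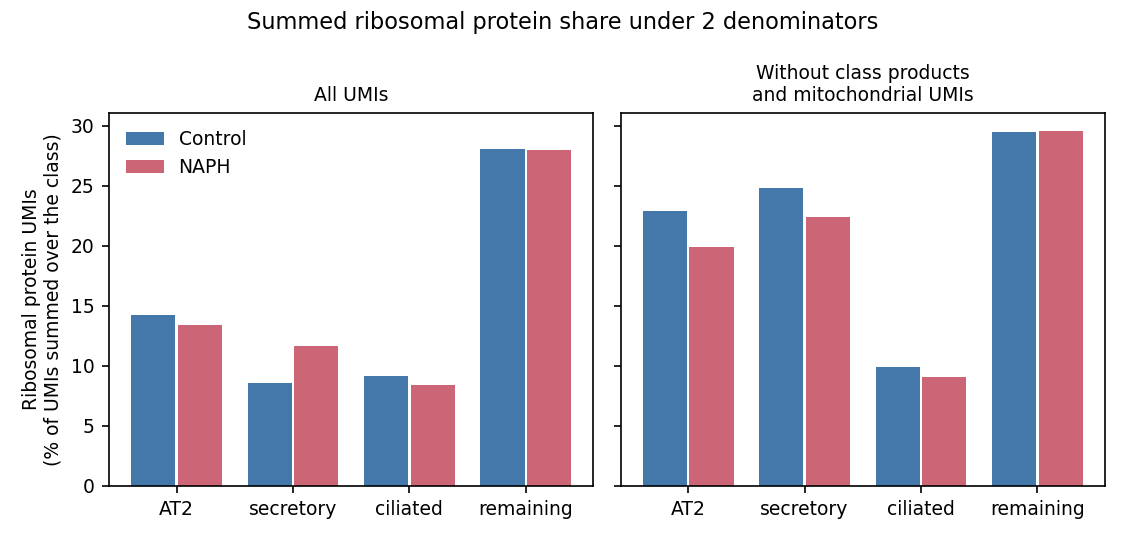
Summed ribosomal protein share (y axis, % of UMIs) by class and library with all UMIs as the total (left) and without class products and mitochondrial UMIs (right). Secretory cells of the Control library move from 8.53% to 24.83%, and the order of the libraries in secretory cells turns.

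The choice of total also decided how airway and alveolar cells compared. On all UMIs, secretory cells stood at 0.598 of the AT2 level in the Control library and 0.865 in the NAPH library; without products the ratios were 1.085 and 1.123. Ciliated cells were lower than AT2 cells on both totals, at 0.643 and 0.625 on all UMIs and 0.432 and 0.454 without products. Remaining cells were higher on both, at 1.970 and 2.087 on all UMIs and 1.289 and 1.485 without products.

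In ciliated cells the difference between libraries depended on how cells were weighted. Deep cells weigh most in the summed ratio of 0.915; with every cell weighted equally it was 0.827, and within cells of 6000 to 10000 UMIs it was 0.801. Among shallower ciliated cells, below 6000 UMIs, the median share was 8.996% in 130 Control cells and 6.05% in 62 NAPH cells. The median ciliated cell held 3.83% mitochondrial UMIs in the Control and 5.18% in the NAPH library, and Scgb1a1, which these cells are not known for, stood at 24220 and 8872 CPM there. Sftpc stood at 2596 and 5716 CPM in the same cells, and the part of these values in the result was not tested.

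States within the classes also differed in level. AT2 cells with Lrg1, an acute-phase glycoprotein gene, at 10 or more per 10000 UMIs numbered 73 in the Control and 1425 in the NAPH library. Their ribosomal protein share was 13.47% and 12.91%, below that of the other AT2 cells of the same library (14.31% and 14.20%), with ratios of 0.941 and 0.909. Among AT2 cells without high Lrg1 the libraries differed little on all UMIs (ratio 0.993, 0.990 to 0.995), and the ratio was 0.922 without products. Remaining cells with immune markers were at 28.22% and 30.47%, a ratio of 1.080, while the other remaining cells, 24 and 181 in number, were at 25.58% and 22.45%, a ratio of 0.878. The combined ratio of 0.997 in the remaining class thus joins values on both sides of 1. Among remaining cells with immune markers, dividing cells (62 and 45) had lower shares than non-dividing ones, 24.90% against 29.04% in the Control library and 25.85% against 31.27% in the NAPH library. Dividing cells were also deeper there, with medians of 12353 against 7733 UMIs in the Control library.

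Counted gene by gene on CPM, with a ratio at least 25% above 1, or at most the inverse of that, called different, 67 of the 81 members were higher in NAPH secretory cells and none was lower. The background in that comparison was 75.1% of 9137 genes higher and 4.31% lower, and the median log2 ratio of all genes was 0.60 against 0.44 for the members. At a stricter mark of 1.5-fold 18 members (22.2%) were higher, against 51.4% of all genes. Cells near the class threshold differed in number: 48 of the 196 NAPH cells above it, but 7 of the 756 Control cells, lay below double the threshold. With the threshold doubled, 25 members were higher and none lower (62.5% and 6.29% of genes), and the summed ratio was 1.219.

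The split turned with the scaling, for the members as for other genes. In secretory cells TMM gave 3 members higher and 25 lower (14.8% and 30.8% of all genes), median-of-ratios scaling 3 and 14 (19.1% and 24.8%), and totals without class products 3 and 7 (22.4% and 21.5%). In AT2 cells 1 member was higher and 1 lower on CPM, against a background of 23.8% and 12.0% of genes. There, 6 were lower and none higher without class products (18.0% and 15.3% of genes in that order), and as many by median-of-ratios scaling (17.9% and 15.4%). In ciliated cells 1 was higher and 10 lower on CPM (background 28.9% and 17.0%). The lower count there rose to 18 by median-of-ratios scaling, with none higher (24.6% of genes lower and 22.1% higher), and to 29 with every cell thinned to 3000 UMIs, again with none higher (22.2% and 26.8%). In the remaining cells 2 were higher and none lower on CPM (background 28.8% and 17.5%), 1 and 3 by median-of-ratios scaling (20.4% and 27.9%) and 2 and 1 by TMM (22.9% and 23.6%). Median log2 ratios of the members in AT2, ciliated and remaining cells on CPM were -0.09, -0.11 and 0.00, against 0.10, 0.06 and 0.07 over all genes tested. Among genes with at least 1000 UMIs of the class, the gap was absent in ciliated (-0.108 and -0.103) and remaining cells (-0.003 and -0.002). It stayed in AT2 cells (-0.09 and 0.13). At that floor 1 of 77 members was higher and 8 were lower in ciliated cells, beside 14.8% and 23.0% of genes.

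To see the members against each other, each was expressed as UMIs per 1000 ribosomal protein UMIs of the class, a scale on which class products play no part. Most members differed little between libraries: 64 of 81 were within 1.1-fold in AT2 cells, 53 in secretory, 49 in ciliated and 65 in the remaining cells. Counting error is small for genes this abundant, and the share of all genes within 1.1-fold was not counted. Whether so small a spread is particular to the members was therefore not tested. Past the same 25% mark, 5 members were higher and none lower in AT2 cells (32.8% and 8.70% of all genes on the same scale), 6 higher and 1 lower in secretory cells (33.8% and 14.2%), 2 higher and 2 lower in ciliated cells (38.8% and 9.53%), and 2 higher and none lower in remaining cells (29.1% and 17.3%). On this scale the members are set against their own sum and so centre near 1, while other genes shift with the level of the members. In AT2 cells the median log2 ratio was -0.0007 for the members and 0.18 for all genes. The shares of all genes are thus no like background for the members. The same 2 libraries enter all 4 comparisons, so the values of a member across classes are set side by side and not counted as repeats.

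**Figure D3:**
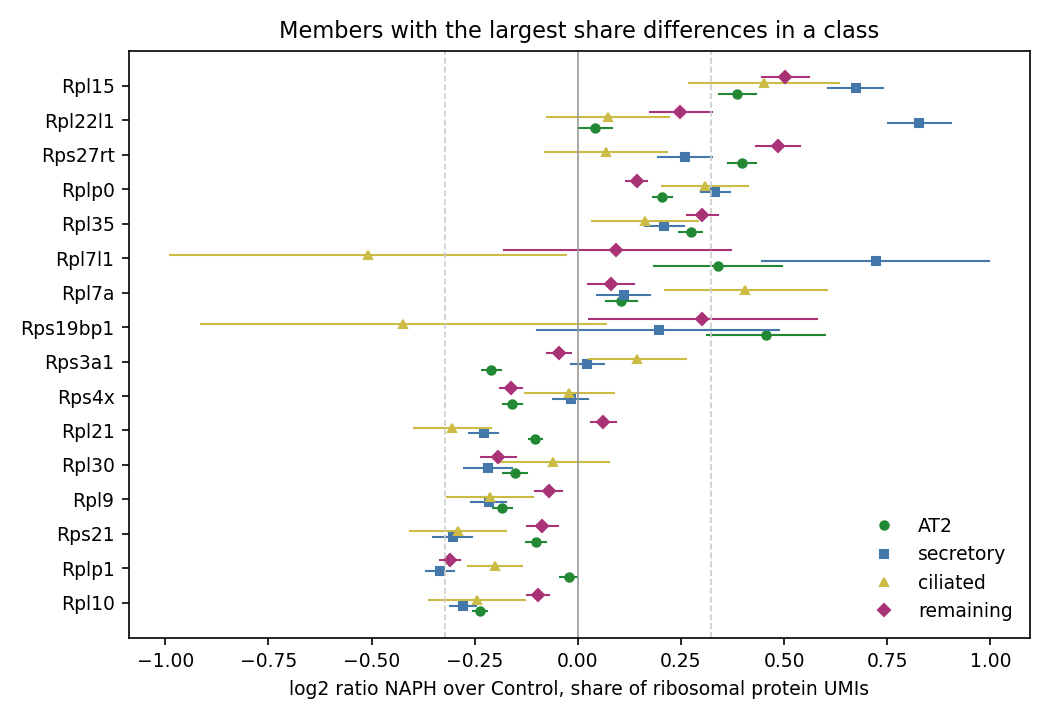
NAPH over Control log2 ratio of each member's share of ribosomal protein UMIs (x axis) for the members with the largest differences in a class (y axis); colours and shapes are classes, bars 95% counting intervals and dashed lines the 25% mark. Rpl15 lies to the right of the upper dashed line in all 4 classes, and Rpl10 lies left of 0 in all 4.

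Rpl15, a large subunit protein gene on chromosome 14, had among the highest share ratios of every class. It counted 2.86 per 1000 ribosomal protein UMIs in Control and 3.73 in NAPH AT2 cells, a ratio of 1.307 (1.267 to 1.349). In secretory cells it counted 3.23 and 5.15 (1.595, 1.522 to 1.671), in ciliated cells 3.63 and 4.95 (1.367, 1.205 to 1.552), and in the remaining cells 3.25 and 4.61 (1.417, 1.362 to 1.475). The NAPH value was the higher in each class. Rpl35, another large subunit gene, was higher by less: 7.76 and 9.38 in AT2, 8.24 and 9.53 in secretory, 7.71 and 8.62 in ciliated, and 8.34 and 10.27 in remaining cells. Its ratios ran from 1.119 to 1.233.

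The stalk genes went different ways. Rplp0, which anchors the stalk, counted 11.13 per 1000 in Control and 12.82 in NAPH AT2 cells, 14.14 and 17.81 in secretory cells, 11.31 and 14.01 in ciliated cells, and 17.15 and 18.92 in remaining cells. Its ratios were 1.152, 1.260, 1.238 and 1.104. Rplp1, whose protein pairs with that of Rplp2, counted 15.15 and 14.92 in AT2, 21.68 and 17.20 in secretory, 33.08 and 28.77 in ciliated, and 22.94 and 18.50 in remaining cells. The ratio was 0.985 in AT2 cells and 0.793 (0.775 to 0.812), 0.870 and 0.807 in the other classes in that order. Rplp2 stayed between 0.937 and 1.096. Per 100 Rplp0 UMIs there were 153 of Rplp1 in Control and 96.6 in NAPH secretory cells, 136 and 116 in AT2 cells, 292 and 205 in ciliated cells, and 134 and 97.8 in remaining cells, so Rplp1 was lower against Rplp0 in the NAPH library in each class.

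Among the members with lower shares, Rpl10, an X-linked large subunit gene, counted 22.62 and 19.18 per 1000 in AT2 cells (0.848, 0.838 to 0.859). It counted 23.54 and 19.41 in secretory cells (0.825), 10.43 and 8.80 in ciliated cells (0.844), and 16.81 and 15.71 in remaining cells (0.935). Rpl9 had ratios of 0.881, 0.861, 0.863 and 0.952 in the same order, and Rps21 had 0.933, 0.811, 0.818 and 0.942. Other members were lower in some classes only by value. Rps3a1 was at 0.865 in AT2 but 1.016 in secretory and 1.105 in ciliated cells. Rps4x was at 0.896 in AT2 and 0.894 in remaining cells, with 0.988 and 0.985 in the airway classes. Rpl21 was at 0.810 in ciliated cells and 1.044 in remaining cells, and Rpl30 was at 0.875 in the remaining cells. Rpl7a was at 1.325 (1.157 to 1.521) in ciliated cells and between 1.058 and 1.080 in the other classes. Rpsa, the laminin receptor homolog of the small subunit, had ratios between 0.949 and 1.017.

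Rpl22l1 was the member with the largest ratio of any class. The protein is the paralog of Rpl22 and can take its place. In secretory cells Rpl22l1 counted 2.39 per 1000 ribosomal protein UMIs in the Control and 4.24 in the NAPH library, a ratio of 1.775 (1.684 to 1.871). In AT2 cells it counted 3.70 and 3.81, in ciliated cells 5.98 and 6.29, and in remaining cells 2.06 and 2.44, with ratios of 1.030, 1.052 and 1.188. Set against Rpl22, there were 46.8 (45.2 to 48.6) Rpl22l1 UMIs per 100 in Control and 91.2 (85.9 to 96.8) in NAPH secretory cells. The corresponding pairs were 65.0 and 69.0 in AT2 cells, 128 and 130 in ciliated cells and 37.2 and 48.1 in remaining cells. Ciliated cells were the class with more Rpl22l1 than Rpl22 UMIs, in both libraries. The secretory cells of the libraries also differed in make-up. Those with Upk3a at 1 or more per 10000 UMIs numbered 9 in the Control and 69 in the NAPH library. Markers of dividing cells summed to 4.45 and 124.5 CPM in the secretory class. The part of these differences in the secretory ratio of Rpl22l1 was not tested.

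The 2 members that are not subunit proteins were rare. Rpl7l1 had 72 and 79 UMIs in Control and NAPH ciliated cells, and its share ratios were 1.265 (1.136 to 1.410) in AT2, 1.651 (1.362 to 1.995) in secretory, 0.703 (0.504 to 0.981) in ciliated and 1.067 (0.883 to 1.293) in remaining cells. Rps19bp1 was at 1.371 (1.242 to 1.514), 1.147 (0.934 to 1.402), 0.745 (0.531 to 1.049) and 1.232 (1.019 to 1.494). Their ciliated values lie below 1, with an interval that reaches past 1 for Rps19bp1.

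The make-up of the members also differed between cell classes. Compared with AT2 cells, with the same direction and the 25% mark required in both libraries, 10 members were higher and 13 lower in ciliated cells per ribosomal protein UMI, where 76.7% of all genes were higher and 7.08% lower. In secretory cells 5 were higher and 3 lower (background 10.4% and 40.3%), and in remaining cells 10 were higher and 8 lower (background 13.1% and 62.7%). Members are set against their own sum here and so centre near 1, while other genes shift with the level of the members. In ciliated over AT2 cells the median log2 ratio was -0.06 for the members and 1.34 for all genes. The shares of all genes are thus no like background for the members. Both libraries hold AT2 cells of their own, so the Control and NAPH ratios come from different cells.

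Rps19, a small subunit gene on chromosome 7, was the lowest of the 81 members relative to AT2 cells in both airway classes. It counted 36.34 per 1000 in Control and 37.60 in NAPH AT2 cells, 20.21 and 23.47 in secretory cells, 12.16 and 12.71 in ciliated cells, and 19.48 and 21.30 in remaining cells. AT2 cells were the highest class in both libraries and ciliated cells the lowest. Over AT2 cells the ratios were 0.335 and 0.338 in ciliated, 0.556 and 0.624 in secretory, and 0.536 and 0.567 in remaining cells. Rpl10 and Rps12 followed in ciliated cells, at 0.461 and 0.459 and at 0.485 and 0.513. Rpl21 was at 0.713 and 0.654 in secretory cells and at 0.470 and 0.528 in remaining cells.

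Rpl41, which encodes a very short peptide of the large subunit, was the converse in ciliated cells. It counted 113.5 and 114.1 per 1000 there, against 37.49 and 43.44 in AT2, 36.21 and 45.49 in secretory and 26.50 and 31.40 in remaining cells. This was 3.027 and 2.626 times the AT2 share of the same library. Rplp1 was at 2.183 and 1.928 times and Rpl22l1 at 1.617 and 1.652 times the AT2 share in ciliated cells. Over both libraries and all barcodes Rpl41 was also the member with the most UMIs (437071), followed by Rps29 (319382), Rps19 (319228), Rps27 (295992) and Rpl37a (271439). At the other end, above Rpl7l1 and Rps19bp1 (3192), were Rpl22l1 (35838), Rpl15 (40517) and Rpl5 (41538). These are counts of 3′ tags, which are not divided by transcript length.

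In secretory cells the highest ratios over AT2 cells in both libraries were those of Rps2, Rpl4 and Rplp0, at 1.291 and 1.391, 1.304 and 1.289, and 1.271 and 1.389 times the AT2 share. Rps19bp1 was at 0.792 and 0.663 there. In the remaining, mostly immune-marker cells, Rpsa was at 1.672 and 1.559 and Rplp0 at 1.541 and 1.476 times the AT2 share. Rplp0 and Rpl4 (1.445 and 1.449) were thus higher there than in secretory cells, and Rps2 (1.118 and 1.073) was lower.

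**Figure D4:**
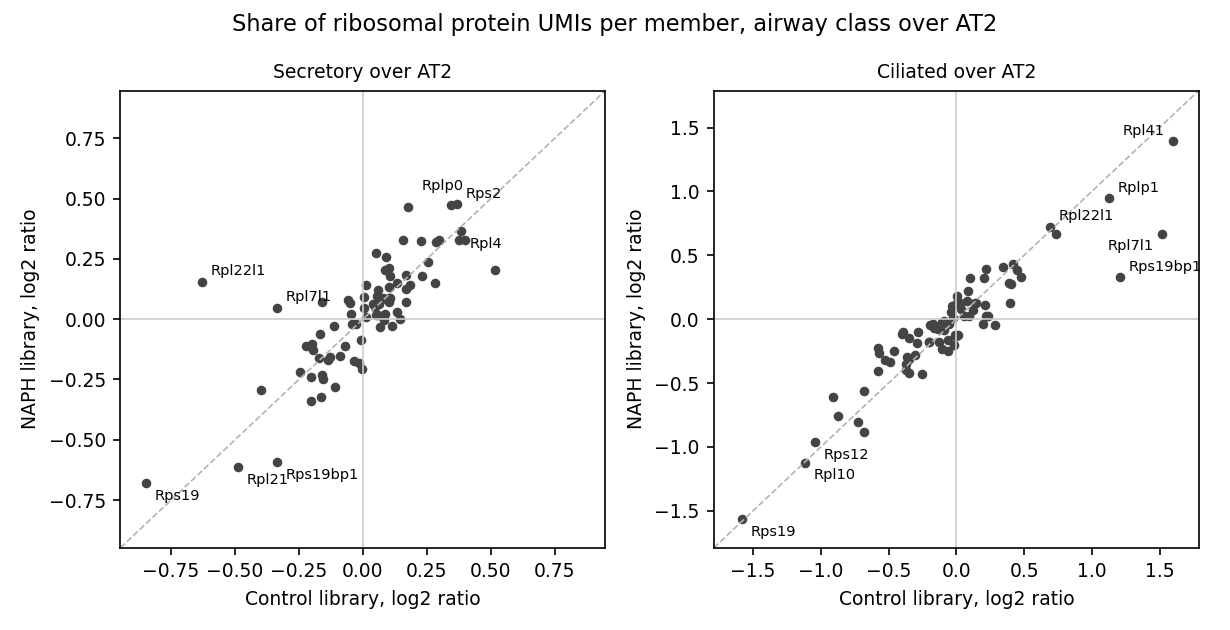
Share of ribosomal protein UMIs of each member relative to AT2 cells, as a log2 ratio in the Control (x axis) and NAPH library (y axis), for secretory (left) and ciliated cells (right); each point is 1 of the 81 members and the dashed line marks equal ratios. Rps19 lies lowest in both panels and Rpl41 highest in ciliated cells.

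Paralogs outside the rule differed by class as well. Rps27l, a p53-responsive paralog of Rps27, reached 29.6 and 34.3 UMIs per 100 of Rps27 in ciliated cells, against 8.43 and 10.6 in AT2, 11.8 and 14.3 in secretory, and 11.2 and 10.9 in remaining cells. Rpl36al, a paralog of Rpl36a, stood at 96.4 and 117 per 100 in ciliated, 76.4 and 98.8 in AT2, 63.8 and 68.0 in secretory, and 53.0 and 54.9 in remaining cells. Rpl3l, the muscle-type paralog of Rpl3, had 44 and 26 UMIs in remaining cells, all of them in cells with immune markers (32 of 448 and 21 of 491 such cells). That is 0.444 (0.323 to 0.597) and 0.170 (0.111 to 0.249) per 100 Rpl3 UMIs, beside 4 and 2 UMIs in AT2 cells. The testis-type paralogs Rpl39l and Rpl10l totalled 65 and 6 UMIs over all barcodes.

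Many ribosomal protein genes have near-identical copies in the mouse genome, and 3′ counting cannot always separate them. Comparing the last 300 bases of annotated transcripts (GENCODE vM21), 67 of the 81 members had at least 1 transcript of another gene aligned over at least 90 bases at 97% identity or more, and 14 had none; Rpl29 had the most such genes, 38. The matches of Rpl7l1 in the deposited gene list were Cd9 and Madd, which are no ribosomal protein copies. For 22 subunit protein members a matching gene was found by symbol in the deposited gene list, and these matches are called copies below. Wdr89 for Rplp2 and BC004004 for Rpl21 are among them, although their symbols are not those of ribosomal protein copies. Counts of members with a copy, Rpl15 and Rplp0 among them, are therefore uncertain where reads could be split.

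Rps27rt shows this. It is an intronless copy of Rps27, and its 3′ end aligned to that of Rps27 over 271 bases at 100% identity. The start regions of both are printed because they show how far the likeness reaches upstream. The longest run they share within these windows, 19 bases, is in capitals. In Rps27 it reaches the last printed base, so how far it continues downstream is not shown.
Rps27, chr3:90213629-90213668, minus strand: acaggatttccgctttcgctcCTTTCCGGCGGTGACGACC
Rps27rt, chr9:114982720-114982759, minus strand: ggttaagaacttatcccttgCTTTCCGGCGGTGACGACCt
The shared run begins at the annotated start of Rps27rt and at the base after the annotated start of Rps27. Rps27rt counted 17.4 and 22.3 UMIs per 100 of Rps27 in AT2, 16.9 and 22.1 in secretory, 18.4 and 22.1 in ciliated, and 17.0 and 21.4 in remaining cells. These class values are nearly the same within a library and differ between libraries. As shares of ribosomal protein UMIs, Rps27rt had ratios of 1.317 in AT2, 1.198 in secretory, 1.048 in ciliated and 1.399 in remaining cells.

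Copies with at least 50 UMIs of a class, Rps27rt included, were then counted as 1 set. The set also holds Wdr89, matched to Rplp2, and BC004004, matched to Rpl21, whose symbols are not those of ribosomal protein copies. Per UMI of the member, their ratios were 1.359 and 1.396 in AT2 and 1.312 and 1.232 in secretory cells. They were 1.35 and 1.04 in ciliated and 1.342 and 0.957 in remaining cells. In AT2 cells, 25 of 26 copies had more UMIs per UMI of their member in the NAPH than in the Control library, with a median ratio of 1.330. The counts were 20 of 22 in secretory cells (median 1.300), 17 of 17 in ciliated cells (1.350) and 22 of 24 in remaining cells (1.308), and no copy was lower past the 25% mark in any class. Past that mark 18, 16, 11 and 16 copies were higher in AT2, secretory, ciliated and remaining cells. Of all genes, set against ribosomal protein UMIs and not against a single member, 32.8%, 33.8%, 38.8% and 29.1% were higher. Some members have several copies, so the copies are not separate items. Gm8730, a copy of Rplp0, stood at 8.42 and 10.98 per 100 in AT2 cells and 7.99 and 11.67 in ciliated cells, and Gm10073, a copy of Rplp1, at 10.73 and 14.22 and at 9.70 and 13.53. The Rpl15 copy Gm10020 stood at 4.03 and 3.88 per 100 of Rpl15 in AT2 cells and at 3.81 and 4.50 in secretory cells. Set against all ribosomal protein UMIs this copy was higher in the NAPH library as Rpl15 was, by ratios of 1.258 (1.074 to 1.479) in AT2, 1.885 (1.490 to 2.374) in secretory and 1.423 (1.162 to 1.748) in remaining cells. The higher ratio of most copies goes with the library in every class and cannot be told apart from the condition. Over the 14 members without a near copy, the level ratios were 0.915 in AT2, 1.294 in secretory, 0.903 in ciliated and 0.970 in remaining cells.

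**Figure D5:**
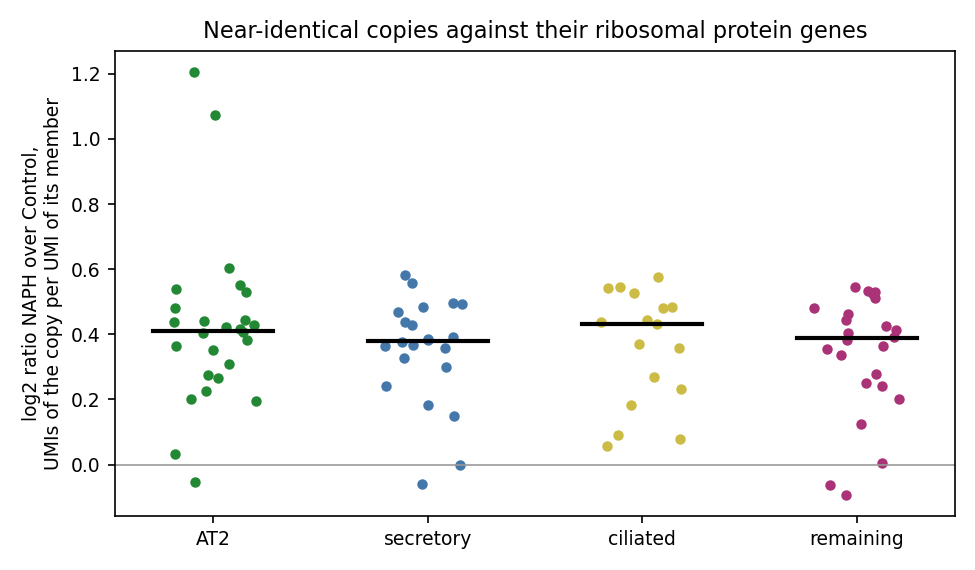
NAPH over Control log2 ratio of UMIs of a near-identical copy per UMI of its ribosomal protein gene (y axis) by class (x axis); points are copies and black lines medians. All 17 copies in ciliated cells and 25 of 26 in AT2 cells lie above 0, with Wdr89 and BC004004 counted among them.

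Genes around the ribosome were counted from lists made for this work. Of 76 mitochondrial ribosomal protein genes with enough UMIs in AT2 cells, 29 were higher and 1 lower past the 25% mark on CPM (background 23.8% and 12.0%), with a median log2 ratio of 0.25 where the cytosolic members had -0.09. In ciliated cells 7 of 70 were higher and 18 lower (background 28.9% and 17.0%). Of 29 ribosome biogenesis genes, which process ribosomal RNA and assemble subunits, 20 were higher and none lower in AT2 cells (background 23.8% and 12.0%, median 0.41). In secretory cells 26 of 28 were higher (background 75.1%, median 0.79, where all genes had 0.60). A further list held 17 genes, translation factors and others such as Npm1, Hnrnpa1 and Gnb2l1. They were listed as having mRNAs with the pyrimidine motif, which was not checked for them here. In AT2 cells 3 of the 17 were lower and none higher (background 12.0% and 23.8%, median -0.20). In ciliated cells 5 of the 17 were higher, a share near the background of 28.9%. Eef1a1, the elongation factor that delivers aminoacyl-tRNA, was at 3047 and 2563 CPM in AT2 and 1228 and 1616 in ciliated cells. Its partner in the elongation cycle, Eef2, was at 710 and 680 CPM in AT2 and 299.6 and 397 in ciliated cells.

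Fau and Gnb2l1, outside the rule, were nearly level between libraries in AT2 cells. Fau was at 1965 and 1969 CPM in AT2 cells (1.002) and at 1095 and 1309 in secretory cells (1.195). Gnb2l1 was at 473.5 and 477 CPM in AT2 and 297.5 and 450.5 in secretory cells (1.007 and 1.514).

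Likeness to the members' summed level was described over the 8 sums of a class and a library. Among 7977 candidate genes outside the members, Fau had the highest Pearson correlation of log2 CPM (0.991), followed by Atg3 (0.989), Tpt1 (0.989), Erp29 (0.986) and Bcl2a1b (0.985). The members themselves had a median of 0.982, with 72 at 0.9 or more and Rpl41 lowest at 0.231. Each member is part of the sum it was set against, so its value is not comparable with those of outside genes. The 8 sums come from 2 libraries and share their denominators, and the remaining class is far above the others, so these values are descriptions with no p.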

How the data were processed

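The deposited matrices hold raw UMI counts per gene and cell, made by the authors with Cell Ranger against mm10 per the submitters' processing notes; no source used here gives the version. Barcodes with under 500 genes, under 1000 UMIs or over 20% mitochondrial UMIs were removed (0 Control, 4 NAPH). Scrublet (scanpy 1.11.5) by its own threshold called 0.243% and 0.109%, under 0.5%, so the highest-scoring cells at the expected rate were removed instead (2.64% and 2.95%, 87 and 109 cells). Counts were summed by class and library, and genes with at least 50 UMIs of a class, and at least 1 in each library, were compared. Intervals are exact conditional Poisson (ratios) at 95%. They were tested only on counts simulated under the same Poisson model, which leaves out the spread between cells and animals. TMM factors came from edgeR 4.0.16. The members, classes and gene lists were chosen with earlier results of these data known. Named genes are the 3 highest and 3 lowest share ratios per class and per airway class over AT2 (at least 200 UMIs), the 5 highest and 5 lowest levels, stalk genes, paralogs, Fau, Eef1a1, Eef2 and Tpt1, plus the 5 most similar genes; others were chosen after their values were seen. No p-value is given, since each group is a single library. Some genes that these rules take in are not reported here.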

Additional observations from a re-analysis of the deposited data

Results flagged for a closer look

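The following values stood on opposite sides of 1 in different classes of the same 2 libraries; the differences between classes were not tested, since each group is 1 library. The ribosomal protein level ratio (NAPH over Control, all UMIs) was 1.361 in secretory cells and 0.941 in AT2, 0.9153 in ciliated and 0.997 in remaining cells. The secretory ratio was on the other side of 1, with the AT2 and ciliated ones, when class products and mitochondrial UMIs were left out of the total (0.902), by TMM (0.8248) and by median-of-ratios scaling (0.8714). The share of Rps19bp1 among ribosomal protein UMIs had a ratio of 1.371 in AT2 and 0.7454 in ciliated cells. That of Rpl7l1 was 1.265 in AT2 and 1.651 in secretory cells against 0.7025 in ciliated cells. Both genes had few UMIs in ciliated cells.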

How the results depend on the processing

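No paired analysis was possible because each group is 1 library, and leaving out a replicate was not possible for the same reason. Values below are NAPH over Control level ratios in AT2, secretory, ciliated and remaining cells in that order, then the level over AT2 cells (Control, NAPH), then counts of members past the 25% mark; a value not given moved by less than its counting interval, or a count by less than 1.5 times. In all, 90 of 203 recomputed values stayed within those limits, 97 moved and 16 turned direction; the cause was not tested.
Totals without class products and mitochondrial UMIs gave 0.8713, 0.902 and 1.004 (AT2, secretory, remaining), 1.085 and 1.123 for secretory and 0.4323 and 0.4535 for ciliated over AT2, and 6 (AT2) and 10 (secretory) members on CPM. TMM scaling gave 0.9119, 0.8248, 0.8902 and 0.9288, then 1.185 and 1.072 (secretory) and 0.3173 and 0.3098 (ciliated), with 28 secretory members. Median-of-ratios scaling gave 0.8724, 0.8714, 0.8495 and 0.892, then 1.236 and 1.235 and 0.373 and 0.3632, with 6, 17, 18 and 4 members.
Thinning every cell to 3000 UMIs gave 0.9339, 1.352, 0.8239 and 1.032, then 0.5936 and 0.8593 and 0.6347 and 0.5599, with 29 ciliated and 4 remaining members on CPM, 3 AT2 members on shares and 5 members for secretory over AT2. Equal weight for every cell gave 0.9342, 1.353, 0.827 and 1.03, then 0.5935 and 0.8593 and 0.6329 and 0.5603. Cells of 6000 to 10000 UMIs only, chosen after seeing the data, gave 0.9648 (AT2), 0.8008 (ciliated) and 1.028 (remaining).
Doubled class thresholds gave 0.9376, 1.219, 0.8859 and 0.9273, then 0.6003 and 0.7804 (secretory) and 0.6069 (ciliated, NAPH), with 25 secretory members on CPM, 4 secretory and 5 remaining members on shares and 5 for secretory over AT2. Halved thresholds gave 1.408 (secretory) and 1.016 (remaining), then 0.5961 and 0.8906. Assigning the cells of several classes to 1 gave 1.369 (secretory), 0.8707 (secretory over AT2, NAPH), 0.6523 and 0.6319 (ciliated over AT2). Without doublet removal the values were 0.9436, 1.355 and 0.965 (AT2, secretory, ciliated), then 0.5996 and 0.8608 and 0.6708 and 0.686, with 1 AT2 and 6 ciliated members on CPM and 14 for ciliated over AT2. The remaining class gave 1.08 in cells with immune markers and 0.8779 in the others.
Members without a near copy, chosen after seeing the data, gave 0.9149, 1.294, 0.9031 and 0.9701, then 0.6298 and 0.8906 and 0.5629 and 0.5556, with 1, 9, 3 and 0 members on CPM, 1, 0, 1 and 1 on shares, and 1 each for secretory and ciliated over AT2; this set holds 14 genes, so its counts are small by construction. Adding near copies to their members, also chosen after seeing the data, gave 0.9483, 1.372 and 1.004 (AT2, secretory, remaining), then 0.6535 and 0.6349 (ciliated over AT2), with 1 AT2 and 1 remaining member on CPM and 1 remaining member on shares. Adding listed pseudogenes to the sum gave 0.9433 (AT2) and 0.9996 (remaining), and a floor of 1000 UMIs left 1 ciliated member on shares.
Among the named members' share ratios, 113 of 120 recomputed values kept within their interval. A turn of direction was counted only for ratios past the 25% mark, and none of those turned. Whether the smaller ratios crossed 1 was not counted.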
